A study of Drosophila melanogaster with 24 samples.

Results

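Long non-coding RNAs are transcripts longer than most small RNAs that carry no annotated protein. The best-expressed ones in adult female fat body of Drosophila melanogaster were examined here. Members were chosen by their name and by a measured value: the symbol in the authors' deposited table starts with lncRNA: and the mean normalised read count over the libraries is 50 or more. This rule took 22 genes out of 908 with such a name and out of 13234 genes in all. The mean chose the members and is given as a description. The fold change was not used to choose them.

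Fat body is the storage organ of insects and a source of yolk and immune proteins, and was dissected from virgin females of the laboratory strain w1118. There were 4 groups of 6 libraries: 11 °C with S-methoprene, an analogue of juvenile hormone, 11 °C with ethanol, 25 °C with S-methoprene, and 25 °C with ethanol. Flies spent 25 days in their condition after rearing at 25 °C, received 10 µL of the agent as vapour every 2 days, and 25 of them made up a replicate. Flies were used only if their ovaries matched the group: small and regressed for 11 °C with ethanol, large for the remaining 3 groups. Ovary state therefore differs between these groups by selection. The authors' deposited table holds 1 comparison with a mean, a log2 fold change, its standard error (SE) and an adjusted p for each gene. It gives no value per library and names neither the factor compared nor which side is positive. A gene with a positive fold change is here said to be higher on the positive side, one with a negative fold change higher on the negative side, and no temperature or agent is assigned to a side. Called positive and called negative mean an adjusted p under 0.05 with that sign.

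Long non-coding RNAs act in several ways. Some are scaffolds that hold proteins in nuclear bodies, some are precursors from which microRNAs or small nucleolar RNAs (snoRNAs) are cut, some regulate the gene they overlap, and for many no role is known. In flies the textbook cases are roX1 and roX2, which guide the dosage compensation complex on the male X chromosome, and Hsromega, a stress-inducible nuclear RNA around which RNA-binding proteins gather in omega speckles. Of the 22 members only Hsromega has a name other than a CR number.

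Set against a current annotation, the label held for most members but not for all. In the RefSeq gene table of genome release 6, 18 of the 22 are still long non-coding RNAs. The other 4 have been renamed: CR44404 is now IBIN, a short protein-coding gene known to be induced by infection, CR45045 and CR43051 are now the protein-coding genes CG45045 and CG43051, and CR46194 is an antisense RNA. Over all 908 long non-coding RNA names in the authors' deposited table, 7 are now protein-coding and 2 match no current name. The 22 members are spread over 5 chromosome arms, with 6 on 2R, 6 on 3R, 5 on X, 4 on 2L and 1 on 3L.

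The members were a small and uneven part of the RNA measured. Their summed mean in the authors' deposited table was 13960 normalised reads, which is 0.296% of the sum over all genes and 85.5% of the sum over all long non-coding RNAs. CR42862 alone, with a mean of 9531, made up 68.3% of the members' sum. Hsromega followed with a mean of 1091 in the authors' deposited table, CR43196 with 526 and CR31781 with 394. The other members were lower, 11 with means from 101 to 276 and 7 with means from 58.9 to 84.5. Per kilobase of exon the order changed. CR42862 was still the highest on that scale, at 1738 normalised reads per kilobase. CR44404 (IBIN, 228 bases of exon) followed at 1211 per kilobase, CR43196 at 968 and CR34335 at 754, while Hsromega, whose annotated exon spans all 21710 bases of its gene, stood at 50.2 and CR43650 was lowest at 11.6 per kilobase.

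Of the 22 members, 15 passed an adjusted p of 0.05 in the authors' deposited table (68.2%), 8 called positive and 7 called negative. Over all genes with an adjusted p the share called was 49.0%, with 27.0% positive and 22.0% negative. Over genes with a mean of 50 or more it was 56.0%, with 27.2% positive and 28.8% negative, and no test was made of the members' share against it. The median log2 fold change of the members was 0.03, against 0.07 over all genes and -0.01 over genes with a mean of 50 or more. Of the called members 5 differed at least 2-fold, 2 positive and 3 negative. Over genes with a mean of 50 or more such calls made up 10.5%, with 5.57% positive and 4.9% negative, and over all genes 18.3%, with 12.4% positive and 5.93% negative. At an adjusted p under 0.01, 6 members were called positive and 5 negative, against 38.2% of all genes and 45.6% of genes with a mean of 50 or more. Adjusted over every gene with a p-value, the members' calls were again 8 and 7, where the share over all genes was 41.2%.

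**Figure D1:**
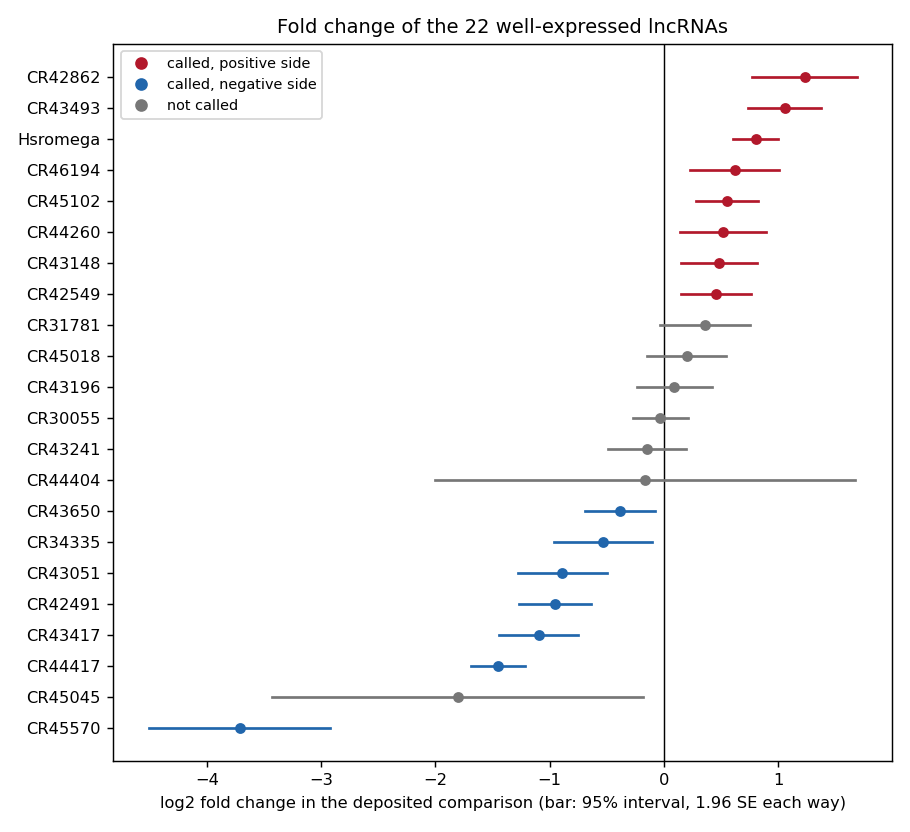
Log2 fold change of each of the 22 members (points) with its 95% interval (bars), from the highest at the top to the lowest, coloured by whether the adjusted p in the authors' deposited table was under 0.05. CR42862 is highest at 1.23 and CR45570 lowest at -3.71, and the bars of CR44404 and CR45045 are the widest.

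Hsromega had the smallest SE of the members and was higher on the positive side. Its log2 fold change in the authors' deposited table was 0.80 (SE 0.10, adjusted p = 1.4e-14), a 1.74-fold difference with a 95% interval of 1.52 to 1.99. Its SE was 0.754 times the median SE of the 1114 genes with a mean within 2-fold of its own. The gene, FBgn0001234, lies on 3R from 21296127 to 21317836 and overlaps no protein-coding gene, and the microRNA gene mir-4951 lies near its 3′ end. The proteins of omega speckles were mixed. Over genes with a mean of 50 or more, 27.2% were called positive and 28.8% negative. Of the 12 listed genes, including the heat shock factor, 4 were called positive and 1 negative. Among them the authors' deposited table gave 0.64 (SE 0.09) for Rb97D, 0.41 (SE 0.08) for nonA and 0.46 (SE 0.09) for Pep, all encoding RNA-binding nuclear proteins, and -0.44 (SE 0.09) for squid (sqd), an hnRNP of mRNA localisation. 

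The most abundant member had the largest difference of those called positive. CR42862 (FBgn0262109, 3L from 224106 to 230964, with 3 exon blocks and 5 annotated transcripts) had a log2 fold change of 1.23 in the authors' deposited table (SE 0.23, adjusted p = 9.83e-07), 2.35-fold with an interval of 1.71 to 3.22. Its SE was 1.69 times the median of genes with a like mean. It shares 246 exon bases, 4.48% of its own, with CG33229 on the same strand, and that gene stood at 0.09 (SE 0.10, adjusted p = 0.492) in the authors' deposited table. CG33229 had a mean of 197 in the authors' deposited table, against 9531 for CR42862.

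The other members called on the positive side were closer to the threshold in mean. CR43493 (X, 22487854 to 22490872) was at 1.05 in the authors' deposited table (SE 0.16, adjusted p = 1.35e-09), a 2.08-fold difference. It lies within the span of l(1)G0196 on the opposite strand and shares no exon base with it. l(1)G0196 was also called positive, at 0.62 (SE 0.18, adjusted p = 0.0015), with a mean of 769 beside 73.1 for CR43493. Transposable element sequence of the FB family covers 23.6% of the exons of CR43493, and 61 FB copies are annotated in the genome, so reads may be shared between copies. CR45102 (X, 3701857 to 3703285) stood at 0.55 (SE 0.14, adjusted p = 0.000298) in the authors' deposited table. It lies 185 bases from Mnt, which encodes a partner of Max that opposes Myc, and Mnt had nearly the same fold change, 0.55 (SE 0.16, adjusted p = 0.00232), and a mean of 200.1 beside 197 for CR45102. CR44260 (3R, 7720049 to 7721124) was at 0.52 (SE 0.19, adjusted p = 0.0161), CR43148 (2L, 21624679 to 21626190) at 0.48 (SE 0.17, adjusted p = 0.0108) and CR42549 (3R, 9548104 to 9551806) at 0.45 (SE 0.16, adjusted p = 0.00912) in the authors' deposited table. These 3 differences were between 1.37-fold and 1.43-fold in size. CR43148 lies 119 bases from its nearest protein-coding gene, and 97 exon bases of CR42549, 4.93% of its own, are shared with mura on the same strand, which was at 0.53 (SE 0.14, adjusted p = 0.000877).

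Besides Hsromega, 2 members contain microRNA genes, and 1 of them was called on each side. CR46194 (2R, 12169558 to 12171706), the antisense RNA that contains mir-281-1 and mir-281-2, was higher on the positive side at 0.62 in the authors' deposited table (SE 0.20, adjusted p = 0.00525). It shares 362 exon bases with Oda, the antizyme of ornithine decarboxylase, on the same strand and 279 with SmD3, a core protein of spliceosomal particles, on the opposite strand. With means of 5749 for Oda, 186 for SmD3 and 58.9 for CR46194 in the authors' deposited table, reads of these genes could weigh on its value if counting did not separate them. CR43650 (2R, 16829095 to 16839494), the primary transcript of mir-8, was higher on the negative side at -0.38 in the authors' deposited table (SE 0.16, adjusted p = 0.0325), a 1.30-fold difference. mir-8 is known for promoting growth through insulin signalling in larval fat body. Poly-A selection captures the primary transcripts and not the mature microRNAs, whose levels were not measured. Of 9 genes of microRNA processing and function, 1 was called positive and 2 negative in the authors' deposited table: the silencing factor gawky (gw) at 0.35 (SE 0.10, adjusted p = 0.000716), against the Dicer-1 partner loquacious (loqs) at -0.45 (SE 0.13, adjusted p = 0.00108) and the Drosha partner pasha at -0.32 (SE 0.12, adjusted p = 0.0144). The shares over genes with a mean of 50 or more were 27.2% positive and 28.8% negative.

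CR45570 had the largest change of all members. Its log2 fold change in the authors' deposited table was -3.71 (SE 0.41, adjusted p = 2.08e-18), so it was 13.1-fold higher on the negative side with an interval of 7.57 to 22.7. A larger absolute fold change was found in only a few genes of like mean, since 99.5% of 2578 genes with a mean within 2-fold of its 62.4 moved less. CR45570 is a single exon of 561 bases on 3R from 30404429 to 30404989, 13778 bases from the nearest protein-coding gene. Its first 52 bases are the end of an 8208-base roo transposable element on the same strand, and 144 roo copies or fragments are annotated. The nearest protein-coding gene with a value, Fer2LCH, which encodes the ferritin light chain, moved the other way, at 0.73 in the authors' deposited table (SE 0.10, adjusted p = 4.23e-11).

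CR44417 and CR43417 were the other members called negative with at least a 2-fold difference. CR44417 (2R, 17869027 to 17869857) was at -1.45 in the authors' deposited table (SE 0.12, adjusted p = 2.05e-31), 2.74-fold with an interval of 2.33 to 3.23. This was the smallest adjusted p of the 22. It lies within the span of Mapmodulin on the opposite strand and shares no exon base with it, and Mapmodulin was higher on the positive side at 0.58 (SE 0.10, adjusted p = 1.94e-08) in the authors' deposited table. CR43417 (2R, 16817519 to 16819240) was at -1.10 in the authors' deposited table (SE 0.18, adjusted p = 5.07e-09), 2.14-fold. It meets CG5550 tail to tail over 59 exon bases on the opposite strand, and CG5550 was also higher on the negative side, at -1.88 (SE 0.30, adjusted p = 5.16e-09).

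The 2 members that hold a snoRNA were both called on the negative side. CR42491 (X, 762615 to 763810) was at -0.95 in the authors' deposited table (SE 0.16, adjusted p = 2.82e-08). It lies in the ribosomal protein gene RpL22, shares 377 of its 747 exon bases with it on the same strand (50.5%), and contains snoRNA:Psi18S-531, which by its name guides a pseudouridine in 18S ribosomal RNA. RpL22, with a mean of 7208 in the authors' deposited table, was also higher on the negative side at -0.37 (SE 0.08, adjusted p = 3.52e-05), and the row of the snoRNA stood at -0.51 (SE 0.16, adjusted p = 0.004). The snoRNA lies within the span of RpL22 and shares no exon base with CR42491, and libraries of poly-A RNA do not measure mature snoRNAs, so that value is not read as the level of the snoRNA. CR43051, now CG43051 (2L, 12507939 to 12508504), contains snoRNA:CG43051-a and was at -0.89 in the authors' deposited table (SE 0.20, adjusted p = 3.42e-05), inside the growth regulator gene bun on the opposite strand. bun itself stood at 0.30 (SE 0.11, adjusted p = 0.0185) in the authors' deposited table. The snoRNP protein genes, whose products bind snoRNAs, were called on the negative side in 8 of 8 cases, with a median log2 fold change of -0.57. Over all genes with an adjusted p, 22.0% were called negative. Nop56 was at -1.05 (SE 0.15) and hoip at -0.92 (SE 0.22) in the authors' deposited table.

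CR34335 (X, 3545750 to 3546110), a 361-base RNA within the span of DIP-alpha that shares none of its exons, completed the negative side. It was at -0.54 in the authors' deposited table (SE 0.22, adjusted p = 0.0304), a 1.45-fold difference with an interval of 1.08 to 1.95. DIP-alpha, which encodes a synaptic cell-surface protein, had a mean of 12.1 beside 272 for CR34335 and was higher on the positive side, at 1.09 (SE 0.26, adjusted p = 0.000141).

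The 7 members that were not called fell into 2 kinds. For CR45018, CR43196, CR30055, CR43241 and CR31781 the interval was narrow enough to bound a change, though not equally so. In the authors' deposited table their log2 fold changes were 0.20 (SE 0.18), 0.09 (SE 0.17), -0.03 (SE 0.12), -0.15 (SE 0.17) and 0.36 (SE 0.20). All of their 95% intervals stay within 0.76 of 0 on the log2 scale, which bounds any difference at 1.69-fold. CR30055, inside the corepressor gene Sin3A, had the tightest bounds, -0.28 to 0.21. CR31781 had the loosest, -0.03 to 0.76, and its SE was 1.61 times the median of genes with a like mean. That interval takes in the fold changes of some called members, such as 0.45 for CR42549. CR43196 lies within the spans of lute, at 0.73 (SE 0.17), and Brf, at -0.57 (SE 0.10), and shares no exon base with either. CR45018 shares 35.8% of its exon bases with IP3K2 on the same strand, yet IP3K2 was called at 1.12 (SE 0.15, adjusted p = 1.46e-12) in the authors' deposited table while CR45018 was not. CR43241 shares 42.4% of its exon bases with CG42748, which was at 0.69 (SE 0.14, adjusted p = 3.28e-06) in the authors' deposited table. INE-1 transposable element sequence covers 28.5% of the exons of CR43241.

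For CR44404 (IBIN; 2R, 17671068 to 17671295) and CR45045 (CG45045; 3R, 17667572 to 17667825) the interval was too wide to bound a change. CR44404 stood at -0.17 in the authors' deposited table (SE 0.94, adjusted p = 0.897), with an interval of -2.0 to 1.67 on the log2 scale. CR45045 was at -1.80 (SE 0.83, adjusted p = 0.0581), a difference of 3.49-fold with an interval of 1.13 to 10.8. Its unadjusted p was 0.0293. Both have a single exon, of 228 and 254 bases, and both are among the members now annotated as protein-coding. Their SEs were 7.44 and 5.67 times the median of genes with a mean within 2-fold of their own, and 99.5% and 99.4% of those genes had a smaller SE. Around CR44404, 14 of 2996 genes with a like mean had an SE at least as large. Genes of several kinds are among them, and those given here were named after their values were seen. In the authors' deposited table the eggshell genes Vm34Ca, Vml and Vm26Ab had SEs of 1.46, 1.40 and 1.33, and Muc68D 1.33. The infection-induced gene edin, at 0.96, was near the lower end of the 14.

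**Figure D2:**
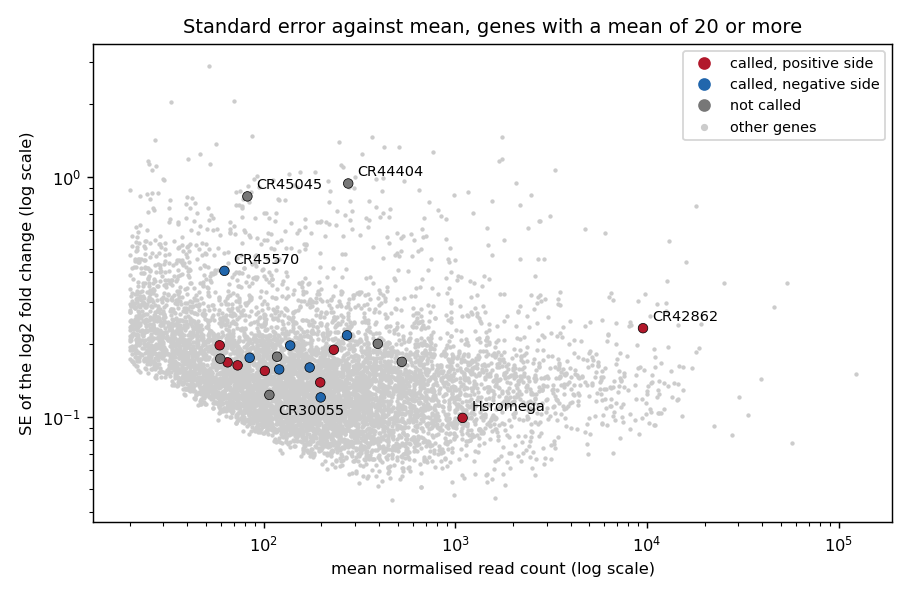
SE of the log2 fold change against the mean normalised read count, both on log axes, for genes with a mean of 20 or more (grey) and for the 22 members (coloured by call). CR44404 and CR45045 lie far above the genes around them, with SEs of 0.94 and 0.83, while Hsromega lies low, at 0.10.

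Most members were measured less tightly than other genes of the same mean. The median SE of the members was 0.18 on the log2 scale, against 0.13 for all genes with a mean of 50 or more in the authors' deposited table. The ratio of a member's SE to the median SE of genes with a mean within 2-fold of its own had a median of 1.23 and was above 1 in 19 of 22. It was below 1 for Hsromega (0.754), CR30055 (0.889) and CR44417 (0.935).

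Many members lie in or against protein-coding genes, which matters for what a read count means. The annotated span of 14 of the 22 overlaps a protein-coding gene, and 7 share exon bases with one, 5 of these on the same strand only, 1 on the opposite strand only and 1 on both. Whether reads were counted by strand, and how reads in shared exons were assigned, the sources used here do not give. Among the 8 members that overlap no protein-coding gene, 4 were called positive (Hsromega, CR45102, CR44260 and CR43148) and 2 negative (CR45570 and CR43650). Among the 14 that overlap one, 4 were called positive and 5 negative. The shares over genes with a mean of 50 or more were 27.2% positive and 28.8% negative. No test was made between these small sets or against those shares. As a median the members with no overlap stood at 0.42 on the log2 scale, those with an overlap at -0.09.

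Members and the coding gene they overlap or lie nearest to shared a direction about as often as they did not. The fold change had the same sign in 11 of 22 pairs. CR43196 was paired with Brf, at -0.57, by start position, though lute, at 0.73, overlaps it as fully. CG32832, paired with CR31781, had a mean of only 0.234. Both pairs are counted as unlike in sign. For comparison, 54.2% of 6566 genes annotated as protein-coding and with a mean of 50 or more, the 3 renamed members included, shared the sign of their own overlapping or nearest protein-coding gene. Among the 12 pairs in which both genes were called in the authors' deposited table, 7 had the same sign (58.3%), against 57.4% of 1827 such pairs of protein-coding genes. The sign was shared in 7 of 13 pairs on the same strand and in 4 of 9 on opposite strands. Pairs that moved apart included CR43148 at 0.48 beside Df31, which encodes a chromatin protein, at -1.04 (SE 0.25, adjusted p = 0.000163) in the authors' deposited table. The largest change of a neighbour was that of CG2616, 1293 bases from CR44260, at 3.53 (SE 0.44, adjusted p = 2.7e-14) beside 0.52 for CR44260. Beside Hsromega, CG16791 was at 0.94 (SE 0.15, adjusted p = 3.07e-09) in the authors' deposited table.

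**Figure D3:**
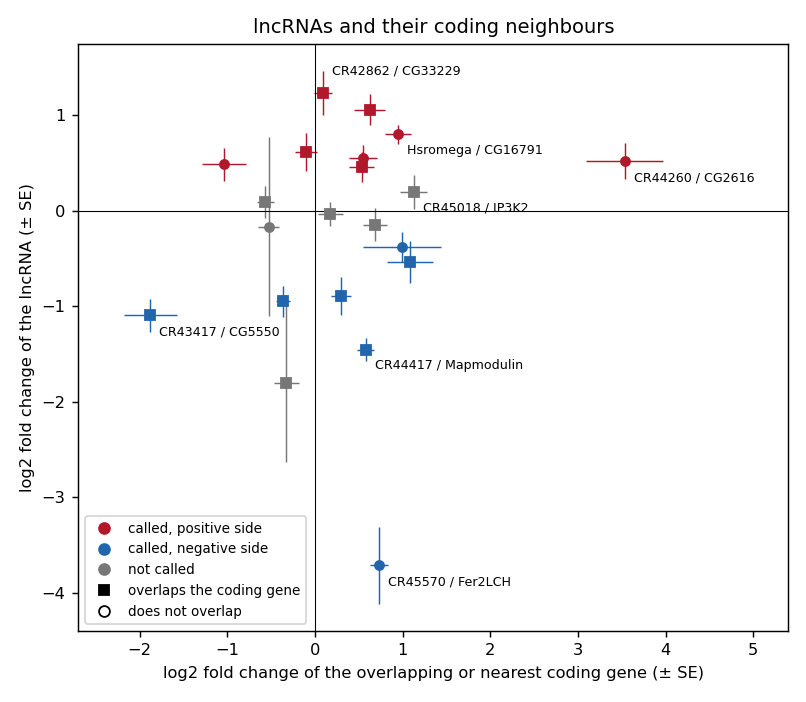
Log2 fold change of each lncRNA (vertical axis) against that of its overlapping (squares) or nearest (circles) protein-coding gene (horizontal axis), with SEs as bars, for the 21 of 22 members whose neighbour has a mean of 1 or more. Points fall in all 4 quadrants, and CR45570 and CR44417 are low while their neighbours Fer2LCH and Mapmodulin lie to the right of 0.

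Calls among the members were nearly even between the sides, and among the long non-coding RNAs below the threshold mostly positive. Below a mean of 50, 463 of 886 had an adjusted p in the authors' deposited table, and the members' 8 positive and 7 negative calls stand beside 97 and 44 there. With a mean of 10 to below 50 these were 24 and 14 of 55 tested, and below 10 they were 73 and 30 of 408. Protein-coding genes had the same kind of tilt at low means, 612 positive and 123 negative of 2221 below a mean of 10, and 1783 positive and 1889 negative of 6563 at 50 or more. The median absolute log2 fold change was 0.54 in the members, against 0.36 in protein-coding genes with a mean of 50 or more and 0.95 in long non-coding RNAs below the threshold. The median SEs of these sets were 0.18, 0.13 and 0.68, in the same order as the absolute fold changes. The part of the SE in these differences was not tested, and neither were the differences.

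**Figure D4:**
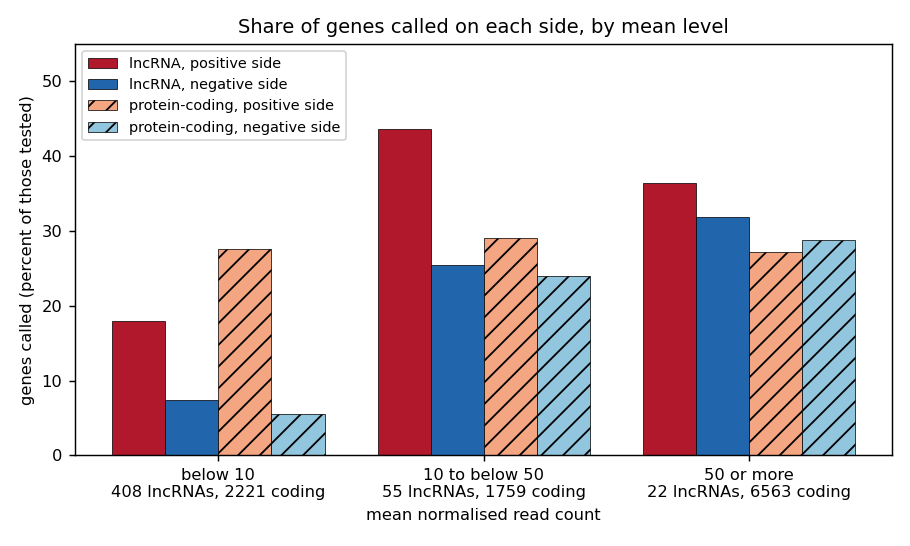
Percentage of tested genes called positive and called negative, for lncRNAs (solid) and protein-coding genes (hatched), by mean normalised read count. At a mean of 50 or more the bars of lncRNAs are 36.4% and 31.8% and those of protein-coding genes 27.2% and 28.8%. Below a mean of 10 the positive bars exceed the negative ones in both classes.

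**Figure D5:**
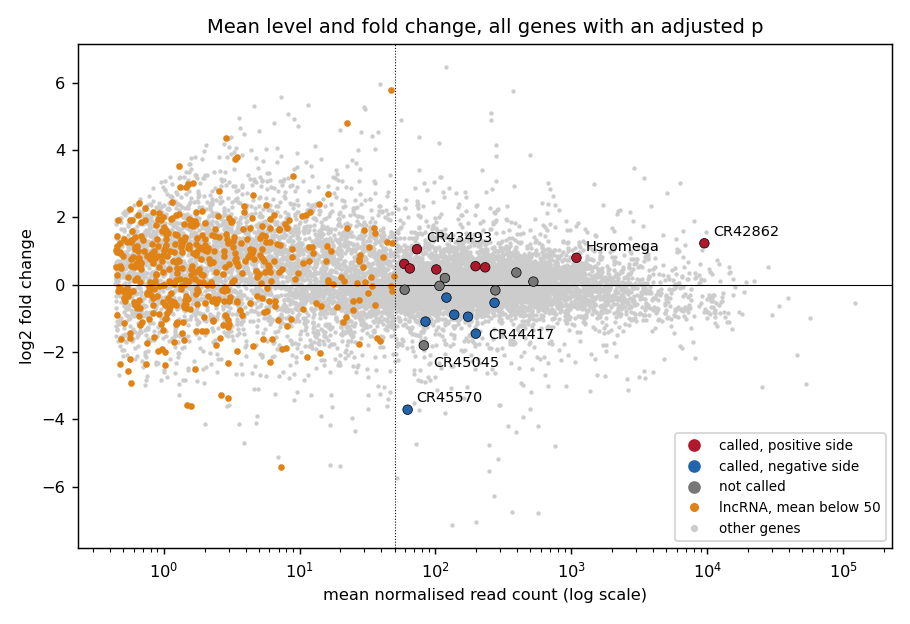
Log2 fold change against mean normalised read count (log axis) for all genes with an adjusted p: the 22 members (large points, coloured by call), lncRNAs with a mean below 50 (orange) and other genes (grey), with the threshold of 50 as a dotted line. Among the members CR42862 and Hsromega lie furthest right, and CR45570 lies well below the other members.

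Just inside the threshold were CR45570 with a mean of 62.4, CR43241 with 59.4 and CR46194 with 58.9, while just outside were CR46123 with a mean of 49.5 and a log2 fold change of 0.25 (SE 0.26), CR46064 with 48.0 and 1.25 (SE 0.15), and CR43685 with 47.8 and -0.19 (SE 0.13) in the authors' deposited table. A mean can pass through 1 side alone. The lower side was approximated for the case that both sides held equally many libraries and together made up all libraries in the mean. Whether this case holds is not known. The lower side would then have a mean under 50 for 4 members, CR43493 (47.5), CR46194 (46.5), CR45045 (36.6) and CR45570 (8.84), 3 of which were called. The other 18 would in this case pass on either side, and 12 of them were called.

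The median exon length was 2028 bases in members called positive (range 713 to 21710) and 747 bases in members called negative (range 361 to 10400). Over called genes with a mean of 50 or more the medians were 3114.5 bases in 1792 positive genes and 1611 bases in 1901 negative genes. The part of length in the members' fold changes was not tested.

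The genes of long non-coding RNA turnover and of the roX complex were also measured. Over all genes with an adjusted p, 27.0% were called positive and 22.0% negative. Of 13 nuclear exosome and cofactor genes, 2 were called positive and 5 negative. Among them the subunit genes Csl4, Mtr3 and Rrp46 were at -1.26 (SE 0.19), -0.99 (SE 0.11) and -0.58 (SE 0.17), while ZC3H3 stood at 0.69 (SE 0.13) in the authors' deposited table. Dosage compensation genes numbered 10 with an adjusted p, and 5 were called positive and 1, roX1, negative. Clamp, which encodes a zinc-finger protein that brings the complex to the X, was at 0.59 (SE 0.07), Unr, for an RNA-binding protein, at 0.37 (SE 0.10) and the sex determination gene Sxl at 0.30 (SE 0.07) in the authors' deposited table.

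As a check of the tissue, FASN1, for fatty acid synthase, had a mean of 19175 and apolpp, for the lipophorin precursor, 18112 in the authors' deposited table, while the storage protein gene Lsp2 had 8.37. The 12 fat body markers had a summed mean of 154973 in the authors' deposited table, and 4 were called positive and 4 negative. Much of that sum lay in Yp1 and Yp2, with means of 25125 and 53598, both called negative at -3.05 and -2.94. Desat1, with a mean of 27868 and called positive, is counted in both the fat body and the oenocyte list. The shares over all genes with an adjusted p were 27.0% positive and 22.0% negative. Markers listed for other cells were present, and many but not all moved. Called positive were 8 of 11 neuron markers (summed mean 511), 7 of 12 muscle markers (6743), 5 of 7 hemocyte markers (4722), 2 of 3 tracheal markers (126) and 2 of 4 Malpighian tubule markers (3771), with none negative. Those not called included nSyb (mean 21.2) at -0.33 (SE 0.29), Act57B (1458) at 0.16 (SE 0.13) and Hml (639) at -0.07 (SE 0.27). Much of the hemocyte sum lay in Ppn, with a mean of 2657. The 2 tubule markers with the highest means, Uro (2173) and salt (1162), were not called, at -0.59 (SE 0.29) and -0.43 (SE 0.20). The 2 called, Best2 and ClC-a, had means of 94.3 and 341. Germline and follicle markers (2073) were called negative in 7 of 10 and positive in 0. Of 6 gut markers (30987) 2 were called positive and 1 negative, and of 6 oenocyte markers (174898), led by Cyp4g1, 2 positive and 3 negative. None of these markers was listed at 0. The part of these cells in the members' differences was not tested. In whole tissue, fewer cells of a type and less RNA per cell cannot be told apart.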

How the data were processed

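RNA was measured in 24 fat body libraries, grouped from the labels into 4 groups of 6. Per the labels' protocols, poly-A RNA was fragmented and made into libraries. By name, per the submitters' processing notes, the tools were DESeq2, Picard, SAMtools, Bowtie2, cutadapt, Trim Galore and FastQC, with build dm6. Their versions, the read counter and the strand setting were not given in the sources. Since the series is described there as one on chromatin accessibility, which tools saw the RNA reads is not certain. The authors deposited 1 table. Per the file headers it holds a mean normalised read count, here taken as a signal over all libraries, a log2 fold change with its SE, the statistic, which is a score, and a p-value with its adjusted p-value. Checked on the values, the deposited statistic is the fold change over its SE, and the deposited adjusted p-values are Benjamini-Hochberg over 11399 genes. The depth of single libraries is unknown, and replicate spread enters only through the deposited SE. The labels do not say whether replicates came from separate cultures, so p-values measure only the spread between these samples, which may be technical.

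Tests are the authors' own, called at an adjusted p under 0.05. Intervals are the fold change ± 1.96 SE (95%). Positions come from the Ensembl release 115 annotation of genome release 6, the assembly of dm6, matched by symbol or RefSeq synonym (13189 of 13234 rows), with exon lengths as the union over transcripts. A neighbour is the coding gene in the table with the longest overlap or, failing that, the shortest distance. Where overlaps were equally long, the gene with the lower start position was taken. Code was tested on simulated data and run with Python 3.11.15, pandas 2.3.3 and numpy 2.4.6. Named genes are every member with a given name, the 8 highest and 8 lowest called members and the 6 highest means. Added to these are the 3 members just above the threshold and the 3 lncRNAs just below it. Most neighbours of the first 3 sets and up to 4 genes per list are also named. CR45018, CR30055 and CR45045, neighbours of further members, and the markers were named besides, after their values were seen. The members and lists were chosen with earlier results of these data known. Alternatives were another adjusted p, adjustment over all genes, a 2-fold minimum, centring, other mean thresholds, antisense RNAs, and overlap. No sequence is shown.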

Additional observations from a re-analysis of the deposited data

How the results depend on the processing

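Of 53 alternative values, 39 were counted as close to the reported ones and 14 as moved. The close ones were not all nearly unchanged. Positive calls among lncRNAs below a mean of 50, for example, fell from 97 to 65 at an adjusted p under 0.01. The members' median log2 fold change stayed above 0 under its 5 alternatives, but the balance of calls did not always hold. Adjusting over every gene with a p-value or subtracting the median fold change left the members at 8 positive and 7 negative calls. With at least a 2-fold change these became 2 and 3, so that negative calls were the more numerous. With a mean of 100 or more there were 5 positive and 5 negative calls in 15 lncRNAs. Of protein-coding genes with such a mean, 28.7% were called on each side. With a mean of 25 or more there were 20 positive and 12 negative calls in 47 lncRNAs, a larger set than the 22 members. Leaving out the 4 renamed members, chosen after seeing the data, gave 7 and 6. Of the members that overlap no coding gene, 4 positive and 2 negative, an adjusted p under 0.01 left 2 and 1, a 2-fold minimum left 0 and 1, and a distance of at least 1000 bases left 1 and 2, so that the last 2 settings turned the balance to negative. Their median log2 fold change was 0.42, against 0.03 for all members. At 0.01 the negative calls among lncRNAs below a mean of 50 became 25, and the positive exosome and negative microRNA processing calls became 1 each. By construction, fewer genes pass where a setting is stricter and more are counted where the mean threshold is lower. The cause of the other shifts, including those in the balance between the sides, was not tested. Calls of CR43650, CR34335, CR44260 and CR43148 were lost at 0.01. No paired analysis was possible because the table holds no value per library, and for the same reason no library could be left out. Precision is lowest for CR44404 and CR45045, and depth per library is unknown.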

Other observations

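Several long non-coding RNAs with a given name fell below the mean of 50, and some of them moved more than any member called on the positive side. let7C, the precursor of the microRNAs let-7, miR-100 and miR-125 that time development, had a mean of 16.1 and was at 2.70 in the authors' deposited table (SE 0.31, adjusted p = 5.22e-17). noe, a nervous system RNA, with a mean of 36.1, was at 1.55 (SE 0.33, adjusted p = 1.54e-05) in the authors' deposited table. cherub, known from neural stem cell tumours, with a mean of 4.08, was at 1.36 (SE 0.46, adjusted p = 0.00804). On the negative side roX1, with a mean of 7.37, was at -1.91 (SE 0.42, adjusted p = 3.35e-05) and the heat-inducible alphagamma-element, with a mean of 27.3, at -1.76 (SE 0.32, adjusted p = 3.78e-07) in the authors' deposited table. roX2, whose adjusted p is empty in the authors' deposited table, had a mean of 0.167. flam, the source of many piRNAs in follicle cells, had a mean of 0.790 and was not called (adjusted p = 0.442).

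The fold changes furthest from 0 among lncRNAs with a mean between 10 and 50 were picked out after the values were seen. CR30121, with a mean of 47.4 just under the threshold, was at 5.78 in the authors' deposited table (SE 0.53, adjusted p = 5.56e-26), and CR45585, with a mean of 22.2, was at 4.79 (SE 0.45, adjusted p = 2.4e-24). CR44442, with a mean of 11.3, was the lowest of them at -2.16 (SE 0.36, adjusted p = 2.01e-08) in the authors' deposited table.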
